A study of Homo sapiens with 46 samples.

Results

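The transcriptome of a Lamin B1 degron line of DLD-1 cells was examined by RNA-seq in 7 libraries, 4 made after 96 h of auxin and 3 made at 0 h, out of 46 libraries of 4 lines in the series. The libraries were chosen by their labels and column names, not by their values. DLD-1 is an established, adherent human colorectal adenocarcinoma line. In the line called LB1 here, labelled LB1-AID, the endogenous Lamin B1 protein carried an auxin-inducible degron at its N-terminal end. The untagged parental line and the lines tagged on Lamin B2 (LB2, labelled LB2-AID) and Lamin A/C (LAC here, labelled LA/C-AID) serve below as comparisons. Auxin was dissolved in DMSO and used at 1 mM, and the labels do not say whether cells at 0 h were given DMSO. Each replicate was a separate well of a culture plate, so p-values measure the spread between wells within a group. That spread was estimated jointly over the 12 groups of all 4 lines. It is not the spread between separately derived LB1 lines, and the labels do not say whether the LB1 line is a single clone. Tag and clonal history cannot be told apart from each other in any comparison between lines.

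Lamin B1 is an intermediate filament protein that stays attached to the inner nuclear membrane through its farnesyl tail, and with Lamin B2 and Lamin A/C it forms the meshwork under the nuclear envelope. The lamina anchors gene-poor, repressed chromatin and carries force from the cytoskeleton into the nucleus through nesprin and SUN proteins. A degron lets the cell ubiquitin machinery destroy the tagged protein when auxin is added, which leaves the messenger RNA of the tagged gene in place. Auxins are indole compounds, and indoles can activate the aryl hydrocarbon receptor, so an auxin-treated line without a tag is the usual control for such experiments.

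The 0 h libraries held 19352004, 1452968 and 10539764 counts, and the 96 h libraries 11874987, 11061687, 18026966 and 9621606. In replicate 2 at 0 h, the least deep, 3 counts equal 2.07 CPM (counts scaled to library depth, by the TMM method throughout). Replicates of a group differed by more than counting noise, with a chi-square per degree of freedom of 4.2 or more. On the second principal component, 96 h replicates 1 and 2 (24.9 and 26.6) stood apart from replicates 3 and 4 (10.4 and 6.15), and on the third, 0 h replicate 2 stood at 35.4 against 10.3 in both other 0 h libraries. Of 101 genes named by rule and called, 48 lost the call without 96 h replicates 1 and 2 and 21 without 0 h replicate 2, and such losses are given beside the genes described at length. Summed markers of colorectal epithelium ran from 6676 to 7626 CPM at 0 h and from 5568 to 7878 at 96 h, with KRT8 and EPCAM well detected and CDX1 at 0 in all 7 libraries. Summed markers of fibroblasts reached at most 2.66 CPM at 0 h and 2.02 at 96 h (COL1A2, DCN and LUM at 0 in all 7). Those of leukocytes reached 3.59 and 3.77 (LYZ at 0 in all 7, CD14 the highest), and those of endothelium 11.3 and 4.56 (KDR at 0 in all 7, VWF the highest).

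After 96 h, 682 of 21484 genes tested were called (3.17%), 226 higher (1.05%) and 456 lower (2.12%) than at 0 h. A gene is called at an adjusted p under 0.05 in edgeR's quasi-likelihood test, with the Benjamini-Hochberg adjustment over all genes tested. Most changes were moderate: 107 genes rose (0.498%) and 125 fell (0.582%) by at least 2-fold. The count rests on which libraries are used. It was 452, 399 and 342 without 0 h replicates 1, 2 and 3, 400 without 96 h replicate 2, and 220 without 96 h replicates 1 and 2, where 84 were higher and 136 lower. It was 1103 (271 higher, 832 lower) without libraries under 5000000 counts. With scaling on library size only, the median log2 fold change of all genes went from 0.04 to 0.13 and the split to 326 higher and 360 lower. The 0 h and 96 h libraries did not overlap in 4018 genes (18.7%), among them 218 of the genes called higher (1.01% of genes tested) and 441 of those called lower (2.05%). An unadjusted p under 0.05 was reached by 14.7% of genes. By the same call rule, 7.78% of genes differed at 96 h in the parental line (3.94% higher, 3.84% lower), 1.5% in LB1 at 16 h, 4.05% between LB1 and the parental line at 0 h and 17.1% between them at 96 h. The change at 96 h differed between LB1 and the parental line in 1.04% of genes (0.726% higher, 0.317% lower in LB1).

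**Figure D1:**
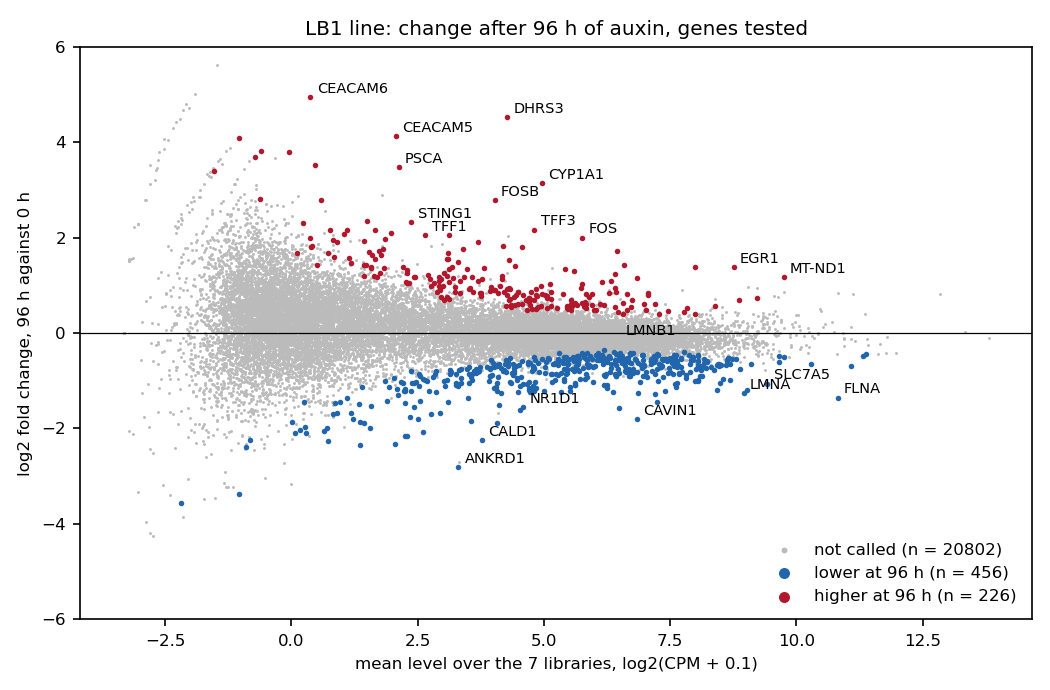
Log2 fold change of the LB1 line at 96 h against 0 h (vertical axis) by mean level over the 7 libraries, as log2(CPM + 0.1) on the horizontal axis, for the genes tested. Red points are the 226 genes called higher and blue points the 456 called lower; the named genes with the highest folds, such as CEACAM6 and DHRS3, lie at low to middle levels.

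The messenger RNA of the degraded protein did not change beyond the spread of its libraries. LMNB1 (chromosome 5, 126776623 to 126837020, plus strand, GRCh38) stood at 100.2, 97.6 and 86.4 CPM at 0 h and at 84.7, 77.7, 84.1 and 99.5 CPM at 96 h. The 2 groups overlapped, and the log2 fold change was -0.13 ± 0.16 (standard error; adjusted p = 0.773). This measures transcript, not protein, so it is no check that Lamin B1 was degraded. LMNB1 was lower in LB1 than in the parental line already at 0 h (a log2 difference of -0.64, adjusted p = 0.0115).

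LMNA, which encodes Lamin A and Lamin C, fell. It stood at 599.5, 850 and 778 CPM at 0 h and at 258, 276, 344.5 and 368 CPM at 96 h, with every 96 h library below every 0 h library. Its log2 fold change was -1.25 ± 0.28 (adjusted p = 0.00359), and -1.07 (adjusted p = 0.126) without 96 h replicates 1 and 2, where it was no longer called. In the parental line LMNA changed by -0.37 (adjusted p = 0.396), and the difference between the lines was not called (-0.88, adjusted p = 0.225). LMNB2 gave 259, 362 and 292 CPM against 184, 190, 246 and 292 CPM, a log2 fold change of -0.41 (adjusted p = 0.397). Of 8 lamin and lamin processing genes, LMNA alone was called, and the median log2 fold change of the 8 was -0.05, beside 0.04 over all genes tested.

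Partners of the lamina in the nuclear envelope were mostly lower, with few calls. The first list had 13 genes, of inner nuclear membrane proteins and of associated factors that need not lie in that membrane. In it 12 had a negative log2 fold change (median -0.23) and 5 an unadjusted p under 0.05, beside 14.7% of all genes. Of the 13 genes 1 was called, that of the Torsin cofactor TOR1AIP2, one of the associated factors. It went from 483 ± 16.6 CPM (SD, n = 3) to 329 ± 24.4 CPM (SD, n = 4), a log2 fold change of -0.55 (adjusted p = 0.00439, and 0.159 without 96 h replicates 1 and 2). The LINC complex, which couples the lamina to the cytoskeleton, had 2 of its 6 genes called, both nesprins, with a median of -0.45 and 4 of 6 at an unadjusted p under 0.05. SYNE1 stood at 9.22, 3.98 and 8.01 CPM at 0 h and at 3.42, 1.56, 3.31 and 2.99 CPM at 96 h (log2 fold change -1.46, adjusted p = 6.49e-05). SYNE3 stood at 3.77, 3.98 and 3.13 CPM and then at 0.836, 0.934, 1.45 and 1.1 CPM (-1.68, adjusted p = 0.000533). In neither did the groups overlap, which also held for 18.7% of all genes tested and 441 of the 456 called lower. Both nesprins were also lower at 96 h in the parental line, by -0.85 and -1.75 on the log2 scale. SYNE1 overlaps ESR1 and its own antisense gene on the other strand. None of 31 nuclear pore genes was called by edgeR, DESeq2 or limma voom, and 2 had an unadjusted p under 0.05 in edgeR. None of 24 writers and readers of heterochromatin was called in the edgeR fit of all libraries or by DESeq2, 1 was lower by limma voom and 1 with GC and length trends removed, and 3 had an unadjusted p under 0.05 in edgeR.

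Several genes of intestinal secretion and of the epithelial surface rose. Trefoil factors are small peptides secreted with mucus, and their genes lie side by side on chromosome 21 (TFF3, TFF2 and TFF1, 42311667 to 42366535, minus strand). TFF3, the peptide of goblet cells, stood at 8.08, 9.29 and 10.8 CPM at 0 h and at 30.9, 48.2, 52.7 and 36.1 CPM at 96 h. Its log2 fold change was 2.17 ± 0.23 (adjusted p = 7.43e-09). TFF1 went from 2.63, 0.664 and 2.21 CPM to 8.89, 8.79, 10.4 and 9.67 CPM (2.06 ± 0.35, adjusted p = 8.77e-05). TFF2 was close to the limit of detection, with 5 counts over the 0 h libraries and 121 over the 96 h libraries, a ratio of summed CPM of 15 (95% interval 6.25 to 47.01, covering counting error only). Its adjusted p was 0.0142, and it was not called without 0 h replicate 1 (0.178), 0 h replicate 3 (0.111) or 96 h replicate 3 (0.052). These are bulk libraries, in which more cells of a type and more RNA per cell cannot be told apart.

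Another pair of neighbours rose on chromosome 19. CEACAM5, which encodes carcinoembryonic antigen, a glycoprotein of the colonic surface, stood at 0.397, 0 and 0.46 CPM at 0 h and at 6.77, 7.31, 9.00 and 4.89 CPM at 96 h. That is 13 counts against 406, a ratio of 19.4 (95% interval 11.2 to 36.7; adjusted p = 9.35e-06). CEACAM6, a related surface glycoprotein, had 2 counts at 0 h, both in replicate 1, and 120 counts at 96 h, with 17 or more in each library. The ratio was 37.2, with a counting interval from 10.1 to 310.5 (adjusted p = 0.00141). The pair shares sequence and a gene without a symbol overlaps both on the same strand, so reads could be split between them.

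Single genes of surface and retinoid biology rose as steeply. DHRS3, an enzyme that reduces retinaldehyde to retinol and is itself induced by retinoic acid, stood at 0.446, 1.99 and 2.58 CPM at 0 h and at 30.9, 35.4, 36.5 and 26.8 CPM at 96 h. Its log2 fold change of 4.53 ± 0.44 (adjusted p = 5.89e-10) kept its call under all 18 alternatives. PSCA, a lipid-anchored surface protein, went from 0.793, 0.664 and 0.368 CPM to 6.01, 8.17, 7.91 and 5.88 CPM (3.48 ± 0.52, adjusted p = 8.05e-06). Both were picked among genes whose 0 h and 96 h libraries did not overlap, so the lack of overlap was set by that choice. DHRS3 also rose in the parental line, from 0.992 ± 0.65 to 6.44 ± 2.74 CPM (SD, n = 4 each; log2 fold change 2.92, adjusted p = 1.27e-05), while PSCA there had 0.716 ± 0.305 and 1.32 ± 0.7 CPM (adjusted p = 0.212).

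**Figure D2:**
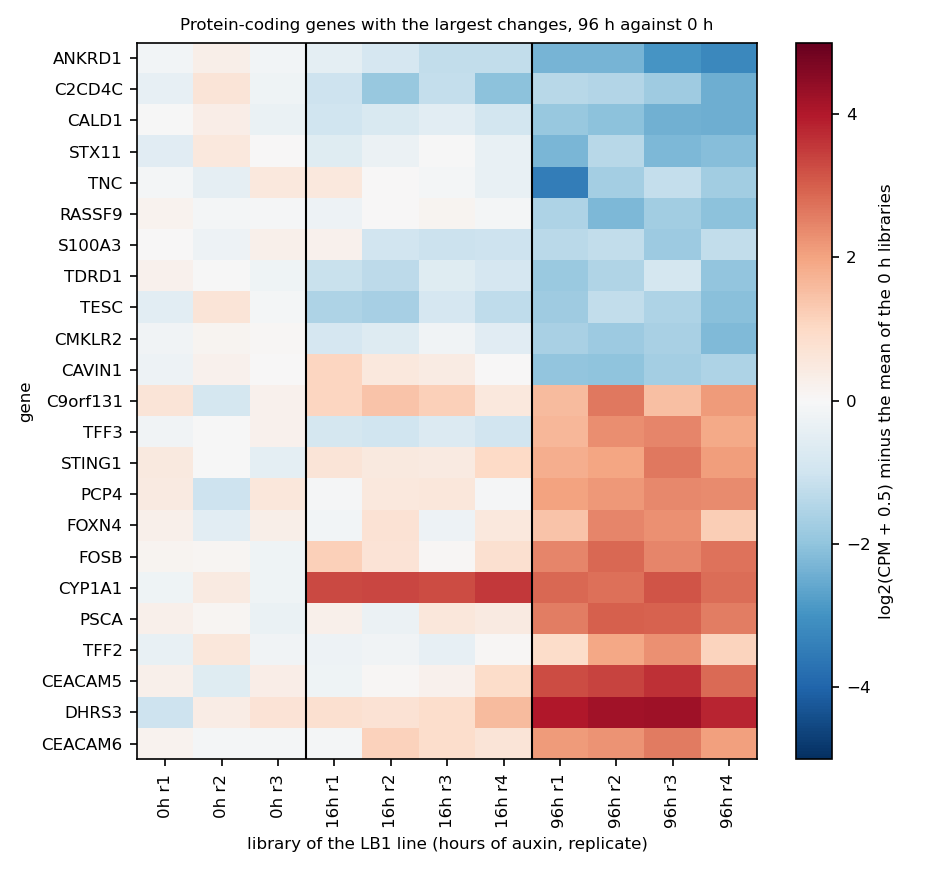
Level of the 12 protein-coding genes with the highest rise and 11 of the 12 with the steepest fall, in the 11 LB1 libraries. Colour is log2(CPM + 0.5) minus the mean of the 0 h libraries. Genes were taken from those called, of at least 1 CPM, whose 0 h and 96 h libraries did not overlap. Most of these genes differ from 0 h only in the 96 h columns, while CYP1A1 is high at both 16 and 96 h.

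Of 22 intestinal differentiation genes tested (9 more had too few counts, MUC2 and ATOH1 among them), 6 rose and 1 fell, with a median log2 fold change of 0.85. In the parental line 6 of the list were also called higher at 96 h and none lower (median 0.35). The difference between the lines was called higher in LB1 for 1 member and lower for 1. Beside TFF1, TFF3, CEACAM5 and CEACAM6 the risers in LB1 were the chloride channel gene CFTR and the intestinal homeobox gene CDX2, both picked out after their values were seen. CFTR stood at 8.68, 8.63 and 11.2 CPM at 0 h and at 35.3, 32.1, 35.8 and 32.5 CPM at 96 h (log2 fold change 1.81, adjusted p = 1.87e-05). CDX2 stood at 105.7, 118 and 117 CPM and then at 156, 164, 174 and 193 CPM (0.6, adjusted p = 0.00686). The hepatic and intestinal nuclear receptor HNF4A fell by 0.52 on the log2 scale (adjusted p = 0.00622). With 96 h replicates 1 and 2 left out, 6 members rose and none was called lower. The keratin of mature colonic epithelium, KRT20, went from 42.3 ± 5.15 to 66.7 ± 8.86 CPM (0.64, adjusted p = 0.0152), a call lost without 0 h replicates 1 or 2 or 96 h replicate 3 (adjusted p up to 0.107).

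STING1, the membrane protein that relays the detection of cytosolic DNA, rose from a low level. It stood at 2.13, 1.33 and 0.83 CPM at 0 h and at 6.01, 6.85, 11.0 and 7.48 CPM at 96 h (log2 fold change 2.33 ± 0.29, adjusted p = 1.79e-07). At 0 h the parental line already had 6.53 ± 0.296 CPM, and at 96 h it had 10.0 ± 1.06 CPM, so LB1 began below the parental line (a log2 difference of -2.06, adjusted p = 2.43e-06) and was not distinguished from it at 96 h (-0.34, adjusted p = 0.275). The difference between the changes of the lines was 1.72 (adjusted p = 0.0123), and 1.35 (adjusted p = 0.128) without 0 h replicate 3. STING1 was the only called gene among 14 tested that repair the envelope or sense DNA. Interferon-stimulated genes, which lie downstream of that route, had 1 of 29 tested higher and 1 lower, with a median log2 fold change of 0.02. OAS1, a sensor of double-stranded RNA, rose by 0.93 (adjusted p = 0.0154; lost without 0 h replicates 1 or 2, up to 0.148), and the ubiquitin-like ligase gene HERC5 fell by 1.03 (adjusted p = 0.0015).

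Immediate early genes, transcribed within minutes of growth factor or stress signals, moved in both directions. Of 28 tested, 6 rose (FOS, FOSB, EGR1, EGR3, BTG2 and MYC) and 3 fell (ATF3, FOSL2 and KLF6), while 1 member was called lower without 96 h replicates 1 or 2 or 0 h replicate 3. FOS, a subunit of the AP-1 factor, stood at 20.1, 20.6 and 19.2 CPM at 0 h and at 63.2, 72.6, 90.2 and 92.6 CPM at 96 h (log2 fold change 2 ± 0.2, adjusted p = 6.46e-10). FOSB, another AP-1 subunit, went from 4.07, 3.98 and 3.13 CPM to 22.4, 30.2, 22.4 and 26.9 CPM (2.78 ± 0.34, adjusted p = 1.51e-07). EGR1, a zinc finger factor, rose from 226 ± 17.7 to 589 ± 120 CPM (1.38, adjusted p = 4.03e-07). The groups did not overlap in FOS or EGR1, as in 18.7% of all genes tested and 218 of the 226 called higher. The parental line had rises at 96 h in FOS (1.64), EGR1 (1.67), EGR3 (1.79) and FOSB (0.99) too, and the difference between the lines was called for FOSB alone of these 4 (1.8, adjusted p = 0.0294). FOSB was lower in LB1 than in the parental line at 0 h, by -1.45 (adjusted p = 0.0074), and was not distinguished from it at 96 h (adjusted p = 0.363). The FOSB difference was lost in 8 alternatives, among them the fits without each of the 0 h replicates 1, 2 and 3. FOSB overlaps ERCC1 on the other strand.

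Feedback genes of the MAPK pathway were likewise split, 2 higher and 4 lower of 17. DUSP2, a nuclear MAPK phosphatase, went from 8.97, 9.96 and 9.76 CPM to 23.0, 27.7, 28.2 and 29.7 CPM (log2 fold change 1.52, adjusted p = 6.81e-06). DUSP6, a cytoplasmic phosphatase of ERK, went the other way, from 176.5, 183 and 184 CPM to 96.8, 76.3, 103 and 106 CPM (-0.92, adjusted p = 1.5e-05). DUSP5 fell by 1.09 (adjusted p = 4.62e-05) and the receptor gene EPHA2 by 0.79 (adjusted p = 0.00439; at most 0.0698, lost without 96 h replicates 1 and 2 and without 3 and 4). In all 4 the 96 h libraries lay outside the range of the 0 h libraries, as in 18.7% of all genes tested. Most called genes show this, 218 of the 226 higher and 441 of the 456 lower.

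Of 13 repressor and output genes of the circadian clock, 3 fell, 2 rose and 8 were not called, with a median log2 fold change of -0.03. In the clock, CLOCK and BMAL1 bind E-boxes, and the REV-ERB receptors NR1D1 and NR1D2 and the PAR bZIP factors TEF, HLF and DBP are among their targets. NR1D1 stood at 35, 49.1 and 32.1 CPM at 0 h and at 10.8, 10.3, 13.9 and 16.2 CPM at 96 h (log2 fold change -1.55 ± 0.19, adjusted p = 9e-08). NR1D2 went from 177, 159 and 185 CPM to 79.6, 63.2, 64.8 and 84.8 CPM (-1.25 ± 0.16, adjusted p = 1.56e-07). TEF went from 31.7, 37.8 and 39.1 CPM to 14.5, 15.8, 19.2 and 19.1 CPM (-1.07 ± 0.17, adjusted p = 2.35e-05). In each of these 3 genes the groups did not overlap, as in 18.7% of all genes tested and 441 of the 456 called lower. All 3 kept their call in all 18 alternatives. HLF and PER2 rose instead. HLF went from 1.13 ± 0.979 to 5.14 ± 0.953 CPM (1.75, adjusted p = 0.0094, and 0.0637 without 0 h replicate 1). PER2, a repressor of the clock, went from 45.8 ± 3.24 to 65.5 ± 8.19 CPM (0.52, adjusted p = 0.0249). PER2 lost its call without any of 0 h replicates 1, 2 and 3 and without the low-count filter. It also did so without 96 h replicates 1 and 2 and without 3 and 4. NR1D1 overlaps THRA on the other strand and NR1D2 overlaps NKIRAS1. None of the 4 activator genes tested was called in the edgeR fit of all libraries or by limma voom, 1 was higher by DESeq2 (NPAS2), 1 was lower with GC and length trends removed (RORA), and 1 had an unadjusted p under 0.05 in edgeR.

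The promoters of NR1D2 and TEF, 250 bases before to 50 after a RefSeq start on GRCh38.p14, are shown because both genes fell and both windows hold the E-box. Capitals mark CACGTG, which reads the same on both strands and was searched with no other motif; it occurs 155 and 105 bases before the start of NR1D2 (chr3:23945871-23946170, plus strand) and 195 bases before a start of TEF (chr22:41367205-41367504, plus strand). Of the 13 clock repressor and output genes tested, all with a promoter in the table, 5 held the E-box in at least 1 window, among them 2 of the 5 called; 7.27% of 34961 promoters of this length hold it.
NR1D2: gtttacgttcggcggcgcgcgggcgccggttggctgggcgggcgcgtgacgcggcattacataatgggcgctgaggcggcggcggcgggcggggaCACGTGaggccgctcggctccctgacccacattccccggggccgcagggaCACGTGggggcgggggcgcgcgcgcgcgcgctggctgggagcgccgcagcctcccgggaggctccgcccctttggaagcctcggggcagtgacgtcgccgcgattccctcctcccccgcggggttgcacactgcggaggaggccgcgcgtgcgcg
TEF: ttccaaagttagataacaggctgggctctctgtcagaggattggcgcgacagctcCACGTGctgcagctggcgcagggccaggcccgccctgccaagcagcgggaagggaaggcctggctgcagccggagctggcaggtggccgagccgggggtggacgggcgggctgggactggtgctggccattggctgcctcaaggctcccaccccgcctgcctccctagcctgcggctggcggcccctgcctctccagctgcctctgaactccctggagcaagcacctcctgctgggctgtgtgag

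**Figure D3:**
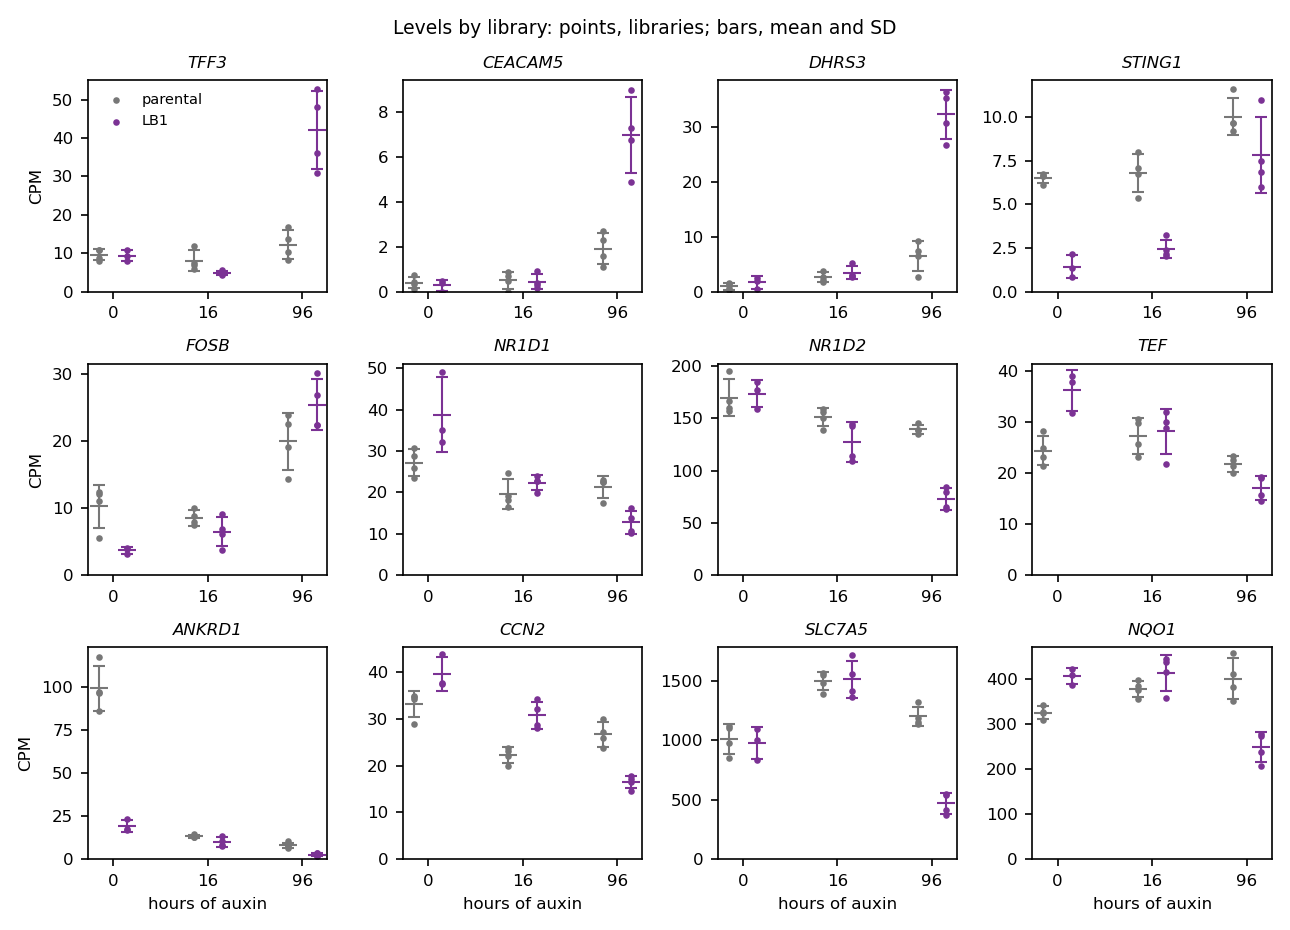
TMM-scaled CPM of 12 genes in the parental line (grey) and LB1 (purple) at 0, 16 and 96 h of auxin; points are libraries and bars the mean and SD (n = 3 for LB1 at 0 h, otherwise 4), each panel with its own axis from 0. TFF3 separates the lines at 96 h, STING1 starts lower in LB1 and ends beside the parental line, and ANKRD1 is lower in LB1 from 0 h on.

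CYP1A1, the monooxygenase that is the classic target of the aryl hydrocarbon receptor, rose from 5.21, 8.63 and 5.25 CPM at 0 h to 48.4, 44.7, 59.2 and 46.1 CPM at 96 h (log2 fold change 3.14 ± 0.26, adjusted p = 2.11e-12). It had reached 64.7, 66.9, 63.3 and 77.3 CPM at 16 h. The parental line showed a log2 fold change of 2.84 at 96 h, and the difference between the lines was 0.3 (adjusted p = 0.723). The detoxifying enzymes NQO1 and ALDH3A1, which share this receptor, fell in LB1. NQO1 went from 386.5, 409 and 421.5 CPM to 277, 206, 272 and 236 CPM (-0.71, adjusted p = 0.000498) and ALDH3A1 from 111 ± 4.05 to 74.4 ± 13.1 CPM (-0.57, adjusted p = 0.0229). The call of ALDH3A1 was lost without any of 0 h replicates 1, 2 and 3 and without 96 h replicates 1 or 2, with adjusted p up to 0.469. The 6 other genes tested of the pathway, CYP1B1, AHRR and TIPARP among them, were not called.

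Many targets of YAP fell. YAP and its DNA-binding partners of the TEAD family drive genes of matrix, adhesion and growth in spread cells under tension. Of 20 tested targets, 10 were lower and none was higher, with a median log2 fold change of -0.6. ANKRD1, a repeat protein and a standard YAP reporter, stood at 17.1, 23.2 and 17.6 CPM at 0 h and at 3.42, 3.42, 2.07 and 1.6 CPM at 96 h (-2.81 ± 0.22, adjusted p = 1.65e-12). The secreted matricellular gene CCN1 went from 130, 166 and 135 CPM to 47, 41, 51.0 and 53.9 CPM (-1.56 ± 0.18, adjusted p = 2.63e-08). Its relative CCN2 went from 37.4, 43.8 and 37.6 CPM to 16.4, 14.6, 17.7 and 17.1 CPM (-1.24 ± 0.18, adjusted p = 4.08e-06). NT5E, the ectonucleotidase CD73, went from 209, 215 and 216 CPM to 112, 92.0, 125 and 95.5 CPM (-1.01, adjusted p = 7.24e-05). The groups did not overlap in CCN1, CCN2 or NT5E, as in 18.7% of all genes tested and 441 of the 456 called lower. The other 6 lower targets, F3, AMOTL2, TGFB2, LATS2, CRIM1 and PTPN14, changed by -0.89 to -0.59. Between 7 and 11 targets were lower in each alternative and none was higher. The parental line moved too: ANKRD1 fell there from 98.9 ± 13 to 7.98 ± 1.62 CPM, and at 0 h it was already lower in LB1 than in the parental line by -2.42 (adjusted p = 1.7e-12).

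The promoters of ANKRD1 and CCN2 are shown because both genes are standard readouts of TEAD and both windows repeat its site. Capitals mark GGAATG, searched on both strands. ANKRD1 (chr10:90921038-90921337, minus strand) holds it 220 and 128 bases before its RefSeq start, and CCN2 (chr6:131951323-131951622, minus strand) 169, 104 and 95 bases before its start, on GRCh38.p14. Of the YAP targets tested, 14 had a promoter in the table and 8 of these held GGAATG, including 6 of the 8 called targets with a promoter (AMOTL2, LATS2, PTPN14 and TGFB2 beside the 2 shown); 14% of all promoters of this length hold it.
ANKRD1: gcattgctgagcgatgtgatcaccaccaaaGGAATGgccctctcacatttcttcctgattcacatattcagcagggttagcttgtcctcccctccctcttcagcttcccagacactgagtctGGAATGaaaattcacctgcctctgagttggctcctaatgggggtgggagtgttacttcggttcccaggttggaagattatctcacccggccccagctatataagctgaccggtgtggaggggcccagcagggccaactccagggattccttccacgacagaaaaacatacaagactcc
CCN2: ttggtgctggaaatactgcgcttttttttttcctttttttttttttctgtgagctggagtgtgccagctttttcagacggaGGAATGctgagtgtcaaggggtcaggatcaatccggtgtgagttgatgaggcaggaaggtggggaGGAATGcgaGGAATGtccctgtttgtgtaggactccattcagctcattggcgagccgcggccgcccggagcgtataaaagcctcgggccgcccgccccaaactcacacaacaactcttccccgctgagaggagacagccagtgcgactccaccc

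Genes of the contractile and adhesive machinery fell beside them. Of 19 tested SRF targets and contractile actin genes, 6 were lower and none higher (median log2 fold change -0.42), and 2 to 10 were lower over the alternatives. CALD1, the actin-binding caldesmon, went from 23.9, 31.2 and 19.5 CPM to 6.23, 5.52, 4.24 and 4.09 CPM (-2.25 ± 0.21, adjusted p = 3.62e-10). FLNA, the actin crosslinker filamin A, went from 2503, 2939 and 2859 CPM to 881.5, 958.5, 1169 and 1322 CPM (-1.35 ± 0.19, adjusted p = 1.59e-06). The other lower members were ACTN1 (-0.69), VCL (-0.67), CNN2 (-0.67) and ACTG1 (-0.47). Without 96 h replicates 1 and 2 the count was 2, with ACTN1 and VCL no longer called (adjusted p = 0.179 and 0.32), and it was 4 without 0 h replicate 2. CALD1 fell in the parental line as well, by 1.86 on the log2 scale. CAVIN1, which coats caveolae, went from 162, 221 and 196.5 CPM to 48.2, 46.5, 58.6 and 65.6 CPM (-1.81 ± 0.27, adjusted p = 7e-06). The caveolin genes CAV1 and CAV2, neighbours on chromosome 7 and looked at after CAVIN1 was known, changed by -1.51 and -1.14 (adjusted p = 8.05e-06 and 0.00015), and TES, the next gene, by -0.54 (adjusted p = 0.027).

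Of 21 integrins, laminins and other adhesion ligands, 8 fell and 1 rose (median log2 fold change -0.5). In the parental line 5 of the list were called lower at 96 h and none higher (median -0.24). No member was called in the difference between the lines. TNC, the matrix glycoprotein tenascin-C, went from 7.69, 5.97 and 12.1 CPM to 0.304, 2.18, 3.31 and 2.09 CPM (-2.16 ± 0.34, adjusted p = 1.93e-05). ITGA3, the integrin alpha chain that binds laminin-332, went from 269, 290.1 and 292 CPM to 115, 115, 158 and 126 CPM (-1.14 ± 0.18, adjusted p = 1.59e-05). LAMB3, a chain of laminin-332 itself, went from 139.5, 182.5 and 181 CPM to 60.8, 74.5, 109 and 85.0 CPM (-1.02 ± 0.2, adjusted p = 0.000676; 0.0769 without 96 h replicates 1 and 2). THBS1, thrombospondin 1, fell by 1.05 (adjusted p = 4.31e-05), and ITGA1, ITGA6, ITGB4 and ITGB5 by 1.01, 0.76, 1.01 and 0.82. FN1, fibronectin, was the member that rose (0.86, adjusted p = 0.0326). No 96 h library of ITGA3 or LAMB3 reached a 0 h library, and 441 of the 456 genes called lower likewise had no overlap (18.7% of all genes tested). At the junctions between cells, 5 of 23 genes fell and none rose (CLDN2, CLDN7, CTNNA1, CTNNB1 and JUP, by 0.46 to 0.65). None was called without 0 h replicate 3 or without 96 h replicates 1 and 2, 1 was without 96 h replicate 1 or replicate 2 or without the low-count filter, and 2 and 3 were without 0 h replicates 2 and 1.

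The amino acid stress program driven by the factor ATF4 held the list with the most falls. Of 23 tested ATF4 and unfolded protein response genes, 13 were lower and none higher, with a median log2 fold change of -0.66. These were ATF4 itself (-0.65) and its targets in serine and one-carbon metabolism (PHGDH, PSAT1, PSPH, SHMT2 and MTHFD2), amino acid import (SLC7A5 and SLC7A11), stress signalling (TRIB3, DDIT4, SESN2 and CHAC1) and the chaperone gene PDIA4. SLC7A5, the LAT1 importer of leucine, stood at 836, 1097 and 999 CPM at 0 h and at 415, 372, 551 and 536 CPM at 96 h (-1.06 ± 0.19, adjusted p = 0.000321; 0.0615 without 96 h replicates 1 and 2). SLC7A11, the cystine importer, went from 221, 232 and 209 CPM to 110.7, 85.0, 87.7 and 80.7 CPM (-1.27 ± 0.15, adjusted p = 4.93e-08). CHAC1, which degrades glutathione, went from 46.5, 49.1 and 47.7 CPM to 17.9, 19.6, 24.1 and 19.5 CPM (-1.23 ± 0.14, adjusted p = 4.93e-08). DDIT4, an inhibitor of mTORC1, went from 183, 265.5 and 262 CPM to 63.6, 71.4, 101 and 108 CPM (-1.45 ± 0.24, adjusted p = 3.66e-05). The groups of these 4 genes did not overlap, as in 18.7% of all genes tested and 441 of the 456 called lower. The count of lower members was 12 to 14 in all alternatives but the fit without 96 h replicates 1 and 2, where it was 7, and at most 1 was higher. In the parental line 7 members were lower and 1 was higher at 96 h (median -0.1), and the difference between the lines was called lower in LB1 for 5 (SLC7A5, SLC7A11, SHMT2, PDIA4 and HSPA5), that of SLC7A11 being lost in 11 of 26 alternatives.

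The CHAC1 promoter (chr15:40953221-40953520, plus strand, GRCh38.p14) is shown because it was the only called member whose window holds the composite element bound by ATF4 and C/EBP factors. Capitals mark TGATGNAA, which lies 209 bases before the RefSeq start on the opposite strand, so the printed strand shows its complement. Of the 23 members 20 had a promoter and 4 of these held the element, 1 of them among the 10 called members with a promoter; 3.62% of all promoters of this length hold it.
CHAC1: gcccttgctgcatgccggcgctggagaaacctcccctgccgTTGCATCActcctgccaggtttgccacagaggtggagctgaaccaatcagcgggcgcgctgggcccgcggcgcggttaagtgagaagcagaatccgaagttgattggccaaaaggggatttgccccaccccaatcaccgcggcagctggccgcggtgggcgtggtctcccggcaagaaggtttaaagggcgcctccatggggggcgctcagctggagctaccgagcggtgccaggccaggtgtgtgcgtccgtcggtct

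Redox and lipid genes fell with them. Of 17 tested targets of the oxidant sensor NRF2, 4 were lower and none higher, SLC7A11, TXNRD1 and NQO1 among them. TXNRD1, thioredoxin reductase 1, went from 513, 502.5 and 521.5 CPM to 251.5, 225, 263 and 251 CPM (-1.05 ± 0.11, adjusted p = 5.06e-09), with groups far apart. Of 25 cholesterol synthesis genes, 5 were lower (HMGCS1, ACAT2, FDFT1 and FDPS among them), 24 had a negative log2 fold change, and the median was -0.35. The parental line had 7 of the same list lower with a median of -0.36. No member was called without 0 h replicate 3 or without 96 h replicates 1 and 2, and 10 were lower with the libraries of the comparison fitted alone. ACSS2, which makes acetyl-CoA from acetate, went from 69.0, 65.7 and 69.96 CPM to 35.3, 42.6, 45.8 and 32.6 CPM (-0.81, adjusted p = 0.000307), also lower in the parental line at -0.86. SCD, the desaturase, went from 998 ± 68.1 to 655 ± 76 CPM (-0.61, adjusted p = 0.0166), a call lost in 7 alternatives (adjusted p up to 0.29).

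Falls were also called among cell cycle, p53 and secreted factor genes, beside 2.12% of all genes called lower. Of 34 G2/M genes, 5 were lower (CDC20, CDC25B, CDC25C, PLK1 and KIF2C, by 0.39 to 0.67 on the log2 scale) and none was higher, with a median of -0.32, 31 negative values and 15 genes at an unadjusted p under 0.05. None of these was called without 96 h replicates 1 and 2, 1 was without 0 h replicate 1, 2 were without 0 h replicate 3 or 96 h replicate 2, and 3 were without 96 h replicates 1, 3 or 4. With limma voom 16 members were lower. CDC20, the activator of the anaphase-promoting complex, went from 238, 240.3 and 238 CPM to 146, 145, 175 and 175 CPM (-0.57, adjusted p = 0.00139). Of 37 S phase genes, 1 rose, the repressor gene E2F8 (0.81, adjusted p = 0.00123), and 1 fell. Of 22 p53 targets, 3 fell (CDKN1A, SESN2 and TNFRSF10B) and none rose. CDKN1A, the inhibitor p21, went from 47.3, 58.4 and 46.4 CPM to 21.4, 23.3, 28.6 and 23.5 CPM (-1.04, adjusted p = 0.00041), and by -1.13 in the parental line. Of 16 tested secreted factors of inflammation and senescence, 3 fell (LIF, PLAUR and GDF15) and none rose; 10 more, IL6 and CXCL1 among them, had too few counts. Only 1 member was called lower without any of 0 h replicates 1, 2 and 3 or 96 h replicates 1, 2 and 4, and LIF lost its call in 13 of 18 alternatives. None of 14 heat shock genes was called in the edgeR fit of all libraries, HSPA8 was higher by DESeq2, by limma voom, with GC and length trends removed and with the compared libraries alone (where 1 other was lower), and 3 had an unadjusted p under 0.05 in edgeR.

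Mitochondrial transcripts were higher at 96 h in all 13 genes tested, by a median log2 fold change of 0.83, yet the spread between libraries was wide and only MT-ND1 was called. MT-ND1, a subunit of complex I, stood at 701, 488 and 311 CPM at 0 h, at 212, 271, 152 and 279 CPM at 16 h, and at 1400, 950, 886 and 1277 CPM at 96 h (1.17 ± 0.32, adjusted p = 0.0285). It was not called without 0 h replicates 2 or 3 or 96 h replicates 1 or 4, with adjusted p up to 0.267 over all alternatives. With the libraries of the comparison fitted alone, 12 of the 13 were called higher. The intermediate filament list had 1 gene higher (KRT20) and 1 lower (KRT80, not called without 96 h replicates 1 and 2, adjusted p = 0.108) of 11, WNT feedback genes 1 higher (EPHB2, not called without 0 h replicate 1, adjusted p = 0.0712) of 17, and abundant nuclear long noncoding RNAs 1 higher (KCNQ1OT1) of 6. Of 20 hypoxia and glycolysis genes 2 rose, PDK1 and NDRG1, which lost their calls in 7 and 8 of 18 alternatives, both of them without the low-count filter and without 0 h replicates 1 or 2 or 96 h replicates 2 or 3. The change also followed base composition weakly over all genes: the rank correlation of log2 fold change with GC content was -0.17 across 8547 genes, which are not independent replicates. Its part in the changes of the lists was not tested, and with the trend of each library removed 1440 genes were called (458 higher, 982 lower).

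**Figure D4:**
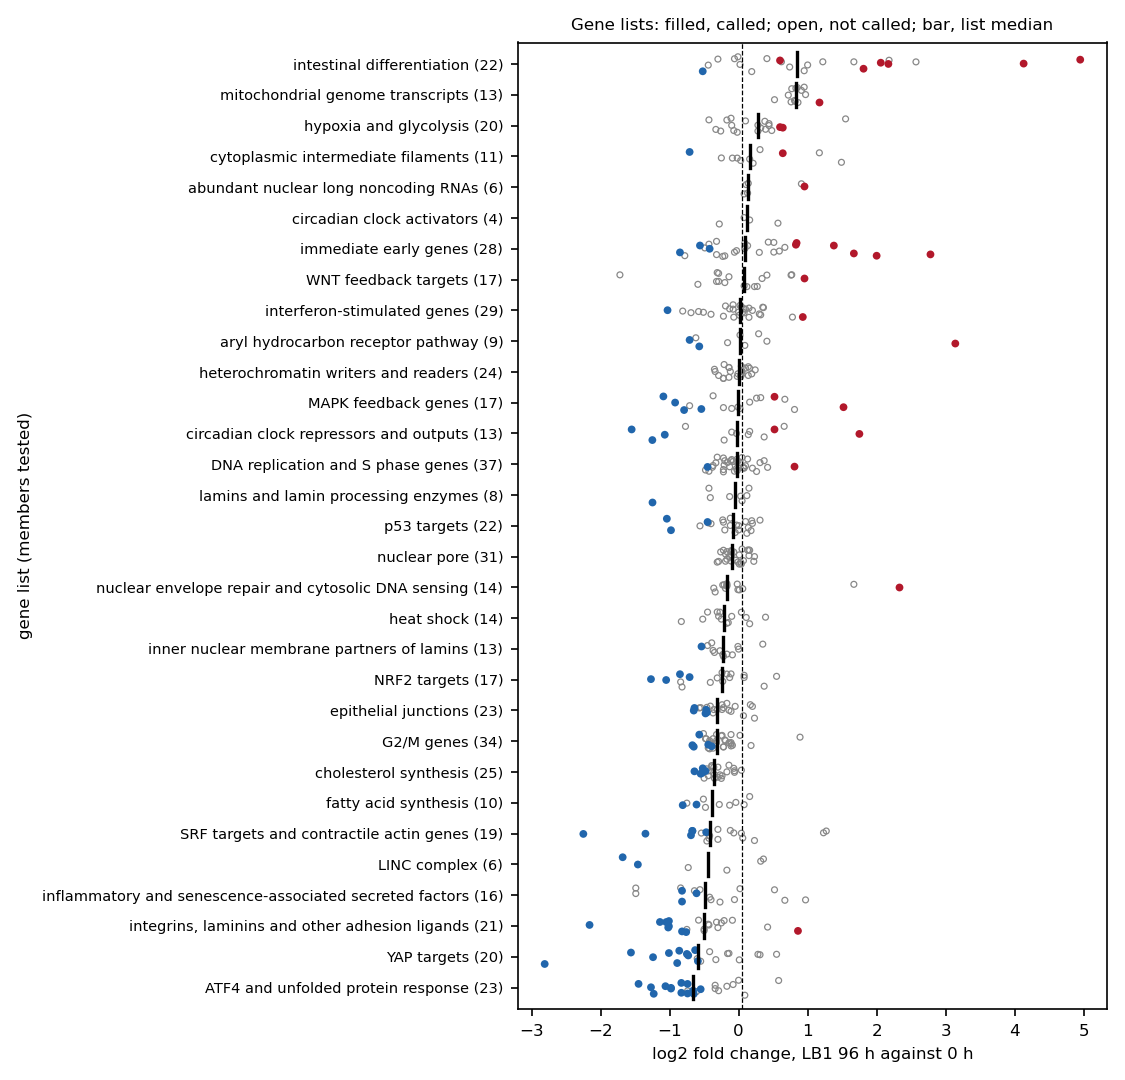
Log2 fold change of each tested member of 31 gene lists in LB1 at 96 h against 0 h (horizontal axis), lists ordered by their median (black bar). Filled points were called (red higher, blue lower), open points were not, and the dashed line is the median of all genes tested, 0.04; ATF4 and YAP lists lie at the low end and intestinal differentiation at the high end.

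Several genes outside the lists were among the steepest falls. RASSF9, a Ras-association domain protein of epithelial differentiation, went from 12, 9.96 and 10.0 CPM to 3.35, 1.87, 2.79 and 2.19 CPM (-2.07 ± 0.2, adjusted p = 3.62e-10). STX11, a syntaxin of vesicle fusion, went from 5.40, 12 and 8.29 CPM to 1.29, 2.80, 1.34 and 1.496 CPM (-2.16 ± 0.32, adjusted p = 7.97e-06). CMKLR2, a receptor of the chemerin peptide, fell by 1.85 (adjusted p = 4.45e-07) and the calcium-binding gene TESC by 1.86 (adjusted p = 0.000724). All were picked among genes whose groups did not overlap, so the lack of overlap was set by that choice. C2CD4C, S100A3 and TDRD1 also fell by at least 2 on the log2 scale, at means of 3 CPM or less at 0 h, and each lost its call without 0 h replicate 1.

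Among the other rises, PCP4, a calmodulin regulator on chromosome 21, went from 0.892, 0 and 1.01 CPM to 3.65, 4.05, 4.81 and 4.69 CPM (2.34 ± 0.63, adjusted p = 0.0251). The transcription factor gene FOXN4 had 11 counts at 0 h and 133 at 96 h, a ratio of 7.49 (95% counting interval 4.05 to 15.4; adjusted p = 0.0422). Both lost their call without any of 0 h replicates 1, 2 and 3 and without 96 h replicates 2 or 3. C9orf131, an open reading frame without a known role, had 0.942, 0 and 0.552 CPM and then 2.21, 5.14, 2.07 and 3.49 CPM (2.15 ± 0.5, adjusted p = 0.00588; 0.0876 at most, without 0 h replicate 3 or without 96 h replicates 1 and 2).

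Most called genes were protein-coding: 180 of 13734 rose (1.31%) and 444 fell (3.23%). Falls were more frequent among abundant genes, 201 of the 3434 protein-coding genes with the highest mean CPM (5.85%) against 40 of the 3434 with the lowest (1.16%). Rises were called in 30 (0.874%) and 38 (1.11%) of these groups, and the median log2 fold changes were -0.10 and 0.20. Whether count depth plays a part in this was not tested. Antisense RNAs were called higher in 14 of 2023 (0.692%) and lower in 2. KCNQ1OT1, the imprinted antisense RNA within KCNQ1, stood at 65.5, 35.2 and 60.6 CPM at 0 h and at 95.3, 144, 106.5 and 86.3 CPM at 96 h (0.95 ± 0.21, adjusted p = 0.00439). It was not called without 0 h replicate 2 or without 96 h replicates 1 and 2, with adjusted p up to 0.158. The strand setting of the counts is not given in the sources used here, so reads of KCNQ1OT1 and KCNQ1 may not be told apart. Of the called protein-coding genes, 68 (10.9%) stood next to another tested gene called in the same direction, in 7 runs that rose and 25 that fell. The longest held 4 calcium-binding genes on chromosome 1 that fell, S100A5, S100A4, S100A3 and S100A2 (153537147 to 153567890), of which S100A3 and S100A4 overlap on the same strand. On chromosome 21, 6 of 134 protein-coding genes tested rose (4.48%), 3 of them the trefoil genes.

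Against 16 h, far more genes differed at 96 h: 4379 were called (20.4%), 2047 higher (9.53%) and 2332 lower (10.9%). The split turned to 2776 higher and 1497 lower with RLE scaling and to 3463 and 1054 with library size alone, which moved the median of all genes to 0.19 and 0.27. The count was 1010 without 96 h replicates 1 and 2 and 2417 without 96 h replicate 2. TFF3 had first dipped, to 4.90, 4.45, 5.70 and 4.55 CPM at 16 h, below every 0 h library (log2 fold change -0.94, adjusted p = 0.0331), before its rise to 96 h (3.1, adjusted p = 2.99e-15). SLC7A5 had 1714, 1417, 1558 and 1363 CPM at 16 h, above every 0 h library, though not called (adjusted p = 0.0839), and was lower by 1.69 at 96 h than at 16 h (adjusted p = 6.21e-09). CAVIN1 showed the same order, with 399, 277, 252 and 194 CPM at 16 h, which overlapped the 0 h libraries, and was lower by 2.35 at 96 h (adjusted p = 5.53e-09). LMNA stood at 855 ± 201.5 CPM at 16 h and was lower by 1.46 at 96 h (adjusted p = 7.19e-05). MT-ND1 was called lower at 16 h (-1.13, adjusted p = 0.0488). These values share libraries with the comparison against 0 h.

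The parental line, given auxin for the same 96 h, shares no library with LB1 and changed in part alike. Of the 226 genes called higher in LB1, 78 (34.5%) were called higher in the parental line, which is 9.21% of the 847 genes higher there, and 6 were called lower. Of the 456 called lower in LB1, 153 (33.6%) were called lower in the parental line, 18.6% of the 824 lower there, and 2 were called higher. Over all genes tested, 3.94% were called higher and 3.84% lower in the parental line. The median log2 fold change of the genes called higher was 0.96 in LB1 and 0.45 in the parental line, and of those called lower -0.76 and -0.33. These genes were chosen by their calls in LB1, which bears on how the medians compare.

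The difference of the 96 h change between LB1 and the parental line was called for 224 genes (1.04%), 156 higher (0.726%) and 68 lower (0.317%) in LB1. It was 245 higher and 60 lower with RLE scaling, 331 and 34 with library size alone, and 369 and 576 with the GC trend removed, so the balance of directions depends on the scaling. It fell to 8 genes, all higher, without 96 h replicates 1 and 2. Leaving out single libraries gave 138, 46 and 356 genes without 96 h replicates 1, 2 and 4, 53 and 41 without 0 h replicates 2 and 3, 61 without parental 96 h replicate 2, and 91 and 90 without parental 0 h replicates 1 and 4. Of the named differences, 2 kept their call in every alternative, those of TFF3 and of PLAC4. TFF3 was level with the parental line at 0 h (9.38 ± 1.35 against 9.59 ± 1.43 CPM) and reached 42.0 ± 10.2 CPM against 12.2 ± 3.8 CPM at 96 h, a difference of 1.82 in log2 fold change (adjusted p = 0.00208). PLAC4, a placental antisense transcript within BACE2, rose in LB1 from 10.3 ± 2.11 to 23.6 ± 6.09 CPM (adjusted p = 0.00214; 0.154 without 96 h replicates 1 and 2) and fell in the parental line from 16.8 ± 3.31 to 8.70 ± 1.64 CPM (a difference of 2.08, adjusted p = 0.000616).

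**Figure D5:**
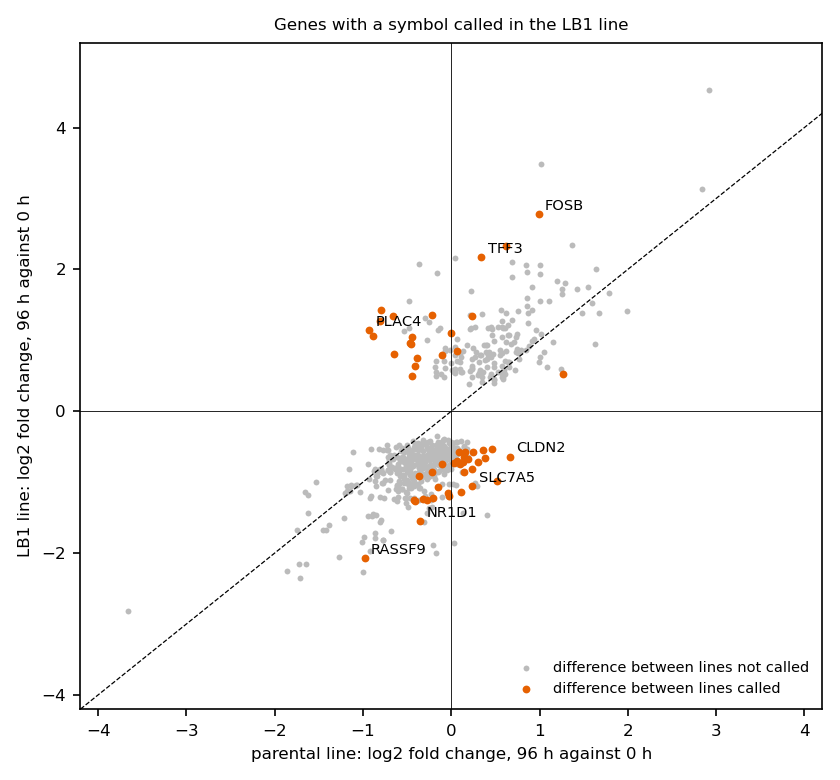
Log2 fold change at 96 h against 0 h in LB1 (vertical axis) and the parental line (horizontal axis) for 638 of 659 genes called in LB1 that have a symbol, those whose 4 group means all reach 0.5 CPM; the dashed line marks equal change. Orange points are genes whose difference between the lines was called, such as TFF3 above the line and SLC7A5 and NR1D1 below it.

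Other differences from the parental line were lower in LB1. CLDN2, a cation-channel claudin, fell in LB1 (19.4, 18.6 and 21.6 to 12.2, 11.0, 16.4 and 11.8 CPM) and rose in the parental line (27.5 ± 2.67 to 43.4 ± 4.74 CPM), a difference of -1.29 (adjusted p = 0.00326; 0.0605 without 96 h replicates 1 and 2). SLC7A5 differed by -1.3 (adjusted p = 0.0108) and NQO1 by -1.01 (adjusted p = 0.00326). CLDN2, SLC7A5 and NQO1 all lost the call without 96 h replicates 1 and 2, with adjusted p of at most 0.179. The fall of CLDN2 within LB1 (-0.64, adjusted p = 0.0288) was lost in 9 alternatives. NR1D1 differed by -1.2 (adjusted p = 0.0123) and NR1D2 by -0.97 (adjusted p = 0.0143). Both lost the call without 96 h replicates 1 and 2 (adjusted p = 0.219 for NR1D1 and 0.152 for NR1D2). The same held without 96 h replicate 2 alone (0.0503 and 0.0539). NR1D1 also lost it without 0 h replicate 2 (0.0524) and NR1D2 without 0 h replicate 3 (0.0797). For YAP targets the parental line had 5 lower and 2 higher, and 3 differences were called lower in LB1 (CCN2, TGFB2 and LATS2). That of CCN2 (-0.93, adjusted p = 0.0452) was lost in 17 of 26 alternatives, among them the replicate block and the fits without each of 0 h replicates 1, 2 and 3 (adjusted p up to 0.31).

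Against the other tagged lines, the LB1 change differed from that of LB2 in 26 genes (0.121%), 7 higher (0.0326%) and 19 lower (0.0884%), and from that of LAC in 216 (1.01%), 62 higher (0.289%) and 154 lower (0.717%). Without single libraries these counts ran from 14 to 74 and from 69 to 720. TFF3 rose more in LB1 than in LB2 (a difference of 1.85, adjusted p = 0.00254) and in LAC (1.33, adjusted p = 0.0203). NR1D1 fell more than in LB2 (-1.43, adjusted p = 0.0053) and in LAC (-1.24, adjusted p = 0.00509). RASSF9 also fell more than in LB2 (-1.72, adjusted p = 0.00037). Its difference from LAC was -2.19 (adjusted p = 2.36e-07), larger than its fall within LB1 (-2.07), so its fitted change in LAC was not downward. SLC7A11 changed more downward than in LAC (-2.09, adjusted p = 2.87e-09), as did SCD (-1.84, adjusted p = 2.36e-07) and DDIT4 (-1.72, adjusted p = 0.00199). Each difference was larger than the fall within LB1 (-1.27, -0.61 and -1.45), so the fitted change of these 3 genes in LAC was upward. For YAP targets as a group no difference from LB2 was called by edgeR, with a median of -0.22.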

How the data were processed

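RNA-seq counts of 46 libraries were used, each replicate being 1 well of a culture plate, per the labels' protocols, with libraries of stranded, ribosomal RNA-depleted total RNA. The authors deposited whole-number counts of reads per gene, made with featureCounts 1.6.4 in an nf-core/rnaseq 1.4.2 environment, per the file headers. The submitters' processing notes also list GRCh38, STAR 2.7.10a, SAMtools 1.10, deepTools 3.4.5 and DESeq2 1.40.2. The strand setting, the treatment of reads with several matches and the annotation release are not given in the sources used here. One gene broken over 3 lines was left out, and 62756 genes remained. Groups were taken from the labels.

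All 46 libraries were fitted together in edgeR 4.0.16 (R 4.3.3) with a coefficient for each of 12 groups, TMM scaling and the quasi-likelihood test, on 21484 genes that passed edgeR's filter on low counts. Tests were two-sided, with Benjamini-Hochberg adjustment over all genes tested. Differences between lines are interaction terms of the same fit. Standard errors are the log2 fold change divided by the root of the F statistic. The procedure was tested on counts simulated from the real group means, library sizes and dispersions. There it called 63% of genes changed 2-fold and 25% of those changed 1.5-fold, and 8.33% of its calls were false. A gene that was not called may thus still have changed. Alternatives were RLE or library size scaling, no filter, a replicate block, removal of GC and length trends, no library under 5000000 counts, DESeq2 1.42.0, limma 3.58.1 (voom with quality weights), the compared libraries alone, and each replicate left out. Leaving out 96 h replicates 1 and 2, or 3 and 4, was chosen after seeing the data. Where a fit left a gene untested, that gene has fewer alternatives than 18.

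The comparison and the 31 gene lists were chosen with earlier results of these data known. The rule for named genes took the lamins first. It then drew on called genes of at least 1 CPM on average whose 0 h and 96 h libraries did not overlap. Of these it took 12 protein-coding genes with the highest and 12 with the lowest fold change, and 3 of other types each way. Up to 4 called genes of each list were added, with up to 2 further ones where fewer than 2 were called. Up to 5 called genes each way were those whose change also differed from the parental line in the same direction. Up to 5 more each way were those also called in the same direction at 96 h against 16 h. Other list members and neighbouring genes named were chosen after their values were seen. Promoters came from RefSeq (GRCh38.p14), and 83 of the 122 named genes matched an entry. Motif searches took both strands. A few genes that the rule or a list took are counted but not reported here by name.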

Additional observations from a re-analysis of the deposited data

Results flagged for a closer look

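Each value here is a difference in log2 fold change at 96 h between LB1 and another line that passed the interaction test (edgeR's quasi-likelihood test, adjusted over all genes). Against the parental line, TFF3 (1.82), FOSB (1.8), STING1 (1.72), PLAC4 (2.08), C9orf131 (2.72), SYT17 (2.08), TNFAIP8L3 (2.01) and KRTAP3-1 (2.24) changed more upward in LB1. NR1D1 (-1.2), SLC7A5 (-1.3), CLDN2 (-1.29), RASSF9 (-1.09), ARID3A (-1.25) and ATP8B2 (-1.5) changed more downward.

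Against the Lamin A/C line, CYP1A1 (2.09), PSCA (3.32), FOSB (2.5), KRTAP3-1 (3.06), C9orf131 (2.63), STING1 (1.84) and TFF3 (1.33) changed more upward in LB1. NR1D1 (-1.24), RASSF9 (-2.19), CMKLR2 (-1.43), CLDN2 (-1.0) and LINC03033 (-3.02) changed more downward. Against the Lamin B2 line, TFF3 (1.85) changed more upward and NR1D1 (-1.43) and RASSF9 (-1.72) more downward. KRTAP3-1 rests on 20 counts at 0 h and 98 at 96 h.

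STX11 in 96 h replicate 2 stood at 2.80 CPM, apart from the other 96 h libraries at 1.29, 1.34 and 1.496 CPM. Its gap exceeded Dixon's 95% critical value for 4 samples, which chance exceeds in about 1 of 20 groups; 43 genes were examined and this was the only one.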

How the results depend on the processing

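The count of 682 genes between 96 h and 0 h became 1440 with GC and length trends removed, 1103 without libraries under 5000000 counts, 1619 with limma voom, 1442 with the compared libraries alone and 220 without 96 h replicates 1 and 2, and ran from 342 to 597 with single replicates left out. Against 16 h, the 4379 genes became 6760 without libraries under 5000000 counts, 6807 with limma voom and 1010 without 96 h replicates 1 and 2, and 2417 to 4207 with single replicates left out. For the difference from the parental line, the 224 genes became 365 with library size only, 945 with trends removed, 370 without libraries under 5000000 counts, 478 with DESeq2, 1128 with limma voom, 782 alone, 8 without 96 h replicates 1 and 2 and 448 without replicates 3 and 4, and 41 to 356 with single replicates left out. For the difference from LB2, the 26 became 48 without the filter, 106 with trends removed, 81 without libraries under 5000000 counts, 81 with DESeq2, 517 with limma voom, 8 alone and 8 without 96 h replicates 1 and 2, and 14 to 74 with single replicates left out. For the difference from LAC, the 216 became 419 with trends removed, 515 with DESeq2, 1441 with limma voom, 68 alone, 114 without 96 h replicates 1 and 2 and 67 without 3 and 4, and 69 to 720 with single replicates left out. The cause was not tested.

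Replicate numbers showed no steady pairing of the samples. Between LB1 at 0 h and 96 h, same-numbered deviations of replicates 1, 2 and 3 correlated at 0.334, -0.119 and 0.137. The highest correlation with another number was 0.303, 0.264 and 0.0654. With the replicate block, the counts were 640, 4484, 167, 31 and 267 in the order above. No named gene reversed. Of 101 named genes called, 45 kept their call in every alternative run and 56 lost it in at least 1, of which 48 did so without 96 h replicates 1 and 2. Of 25 named differences from the parental line, 2 kept theirs. The depth of 0 h replicate 2 limits genes near 2.07 CPM.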
